A study of Mus musculus with 30 samples.

Results

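The genes described here encode the proteins of the cytosolic ribosome. They were taken from the gene table by name, as symbols beginning with Rpl or Rps and a number, together with Rplp0, Rplp1, Rplp2 and Rpsa, and kept where at least 5 of the 30 samples reached 1 FPKM (a read density normalised for transcript length and library size). Of 89 genes with such a name, 86 passed, out of 16741 genes past the same filter and 51904 in the table. The names left out were Rpl10l, Rpl6l and Rps12l1. The samples were retinal pigment epithelium (RPE) from male wild-type C57BL/6 mice of 10 to 13 weeks, 1 eye from each of 30 mice. There were 5 mice at each of 6 zeitgeber times (ZT), ZT0, 2, 4, 9, 14 and 19, and all groups shared strain, genotype and handling. Eye side, 16 left and 14 right, was not balanced over time. All eyes at ZT4 and most at ZT14 were left, and most at ZT2 and ZT19 were right. Retina and anterior segment had been taken away, the eyecup kept in RNAlater, and pigmented clumps lifted from the choroid with forceps before RNA extraction on a micro-scale column. ZT0 is lights-on and ZT12 lights-off by convention, which the labels do not state.

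Each ribosome has a small subunit, which reads the mRNA, and a large subunit, which joins the amino acids, and nearly every protein in them is made from a single gene at matched amounts. Most of these mRNAs start with a C followed by a run of pyrimidines, the terminal oligopyrimidine (TOP) tract, through which the kinase complex mTORC1 controls their translation. That control acts on ribosome loading, which mRNA levels do not record. RPE cells engulf shed tips of photoreceptor outer segments each day, with a burst after lights-on, and many of their genes follow the clock.

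The 86 genes comprised 77 canonical ribosomal protein genes, 31 of the small subunit and 46 of the large subunit, and 9 others: the paralogs Rps27l, Rpl22l1, Rps4l, Rpl7l1, Rpl36al, Rpl3l and Rpl39l and the pseudogenes Rps3a2 and Rps3a3. The annotation (GENCODE M21, GRCm38) lists 83 as protein coding and 3, Rps4l, Rps3a2 and Rps3a3, as processed pseudogenes. They lie on 19 chromosomes, 4 of them on X.

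RefSeq gives a start site (GRCm38.p6) for 63 of the 86. The start base itself was a C followed by 4 pyrimidines, read on the transcribed strand only, in 13 of the 63 (20.6%). This was so in 2.97% of 11866 tested genes with a sequence. The count includes starts inside a run that begins earlier, as in Rps27, Rplp2 and Rpl35. Within 5 bases on either side, a C followed by 4 pyrimidines was found in 29 (46.0%), against 23.7%. Of small-subunit genes 11 of 23 had it there, and of large-subunit genes 16 of 34. The sequences printed here run from 15 bases before the start to 15 bases from it, with the first pyrimidine run that matches within 5 bases of the start in capitals. They were chosen after the levels were known, to show a run that spans the start (Rps27, Rplp2 and Rpl35, where it begins 2, 4 and 5 bases before it), a run 2 bases after the start in the most abundant member (Rpl13a), and a pair of genes on which later results turn and which have no match within 5 bases of the start (Rpl27, Rpl3l).
Rps27 (chr3:90213634-90213663, minus strand): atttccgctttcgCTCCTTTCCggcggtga
Rplp2 (chr7:141447636-141447665, plus strand): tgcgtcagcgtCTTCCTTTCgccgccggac
Rpl35 (chr2:39005117-39005146, minus strand): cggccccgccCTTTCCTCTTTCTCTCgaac
Rpl13a (chr7:45128731-45128760, minus strand): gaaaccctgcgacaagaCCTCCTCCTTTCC
Rpl27 (chr11:101442230-101442259, plus strand): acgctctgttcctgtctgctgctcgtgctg
Rpl3l (chr17:24727811-24727840, plus strand): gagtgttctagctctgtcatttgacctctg
A match describes these letters only, and depends on which start RefSeq lists. The Rpl27 start used, 101442245, lies upstream of the GENCODE gene, which begins at 101442298. For Rpl3l RefSeq lists 2 starts, of which 1 is shown.

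Ribosomal protein mRNAs were among the most abundant in the tissue. The median over members of their median level was 356 FPKM, against 9.77 FPKM over all tested genes, and 75 of the 86 had a median of at least 100 FPKM (5.70% of tested genes did). Rpl13a, which also takes part in interferon-controlled translational silencing, had the highest median, 6068 FPKM, with samples from 4847 to 9859. It was followed by Rps14 at 2844 FPKM, the stalk gene Rplp1 at 1810.0 and Rps27 at 1144. Small-subunit genes had a median of 386 FPKM and large-subunit genes 385. All 31 small-subunit genes and 42 of the 46 large-subunit genes reached a median of 100 FPKM. At the low end of the canonical genes were Rpl35, with a median of 41.7 FPKM, and Rpl27a, with 46.3. The lowest members were Rps3a3 at 1.36 FPKM, Rps3a2 at 1.23 and Rpl39l, which is known from testis and was above 0 in 9 samples, at most 12.6 FPKM.

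**Figure D1:**
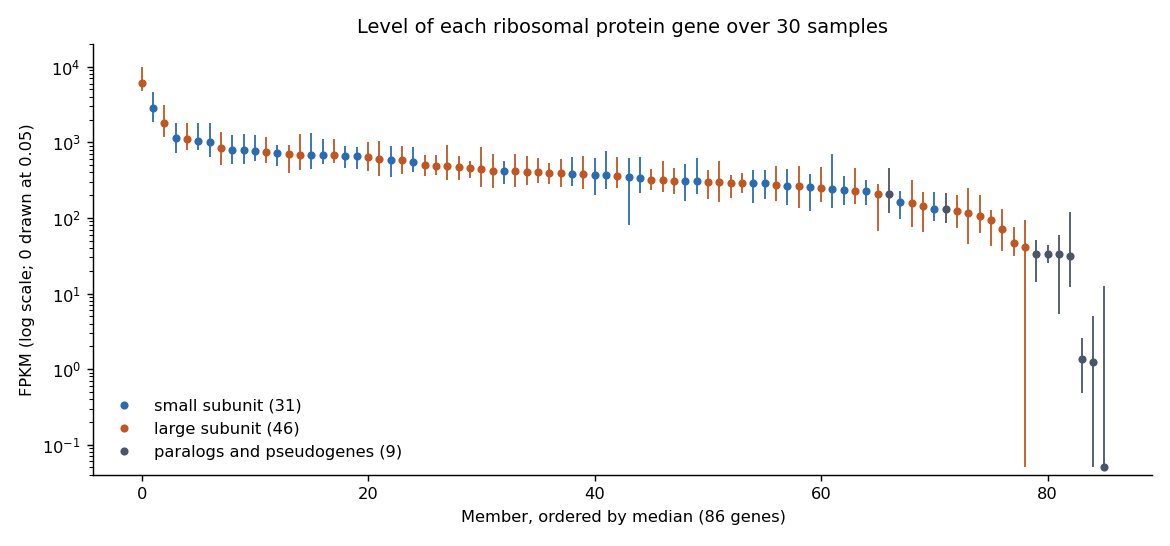
Level of each of the 86 genes, in FPKM on a log axis, ordered by median; points are medians and lines run from the lowest to the highest of 30 samples. Most medians lie between 100 and 1144 FPKM, Rpl13a stands above all others, and the paralogs and pseudogenes fill most of the low end.

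Levels of single members varied little between mice. The median SD of log2(FPKM + 1) over the 30 samples was 0.31 for members, 0.64 for all tested genes and 0.37 for the 954 tested genes with a median of at least 100 FPKM. Rpl7l1, a large-subunit relative linked to ribosome assembly, had the smallest SD, 0.21, with samples between 25.4 and 44.0 FPKM. Rpl26, Rpl21, Rpl23 and Rpl8 came next, at 0.22 to 0.23. The largest SDs belonged to Rpl39l (1.25), Rpl35 (1.21), Rpl36al (0.83), Rpl3l (0.73) and Rps29 (0.58). Rpl35 was listed at 0 in ZT14 replicate 3, where Rps3a2 was at 0 too.

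That sample and a second one stood apart. ZT14 replicate 3 listed 537 genes at 0 whose median over samples was at least 10 FPKM, against 1 to 22 in the others, and it held the lowest value of 14 canonical members and the highest of 11. ZT4 replicate 1 held the highest value of 51 of the 77 canonical members, and 76 were above their own median there. The depth behind the samples, estimated from the steps of low FPKM values, was 12.5 to 23.0 M reads (M, mega). As a check on the tissue label, 12 of 13 RPE markers had a median of at least 10 FPKM, but so did 13 of 14 skeletal muscle markers, 10 of 12 surface epithelium markers and 9 of 11 rod markers. In such bulk samples fewer cells of a type and less RNA per cell cannot be told apart.

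Members rose and fell together from mouse to mouse. The median Pearson r between pairs of canonical genes was 0.48 over 30 samples, which all pairs share, and 96.5% of pairs were positive, whereas over pairs of all tested genes the median was 0.00. Canonical genes had a median level of 386 FPKM against 9.77 FPKM for all tested genes, and pairs matched for level were not compared. Without ZT4 replicate 1 and ZT14 replicate 3 the canonical median r was 0.44. To follow this per sample, each canonical gene was set to its own median and the median of the 77 deviations was taken. It ran from -0.37 (ZT4 replicate 2) to 0.64 (ZT4 replicate 1) on the log2 scale. The mice at ZT4 therefore spanned the whole range of the series. Small and large subunit moved in step: their medians differed by -0.12 to 0.14 in any sample.

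The summed FPKM of the 86 genes made up 4.38% to 7.51% of all FPKM, with a median of 5.43%. By time point this share was 5.45 ± 0.37% at ZT0, 5.90 ± 0.53% at ZT2, 5.64 ± 1.19% at ZT4, 5.50 ± 0.33% at ZT9, 5.51 ± 0.27% at ZT14 and 5.15 ± 0.53% at ZT19 (mean ± SD, n = 5 mice each). The ranges of all time points overlapped with one another.

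**Figure D2:**
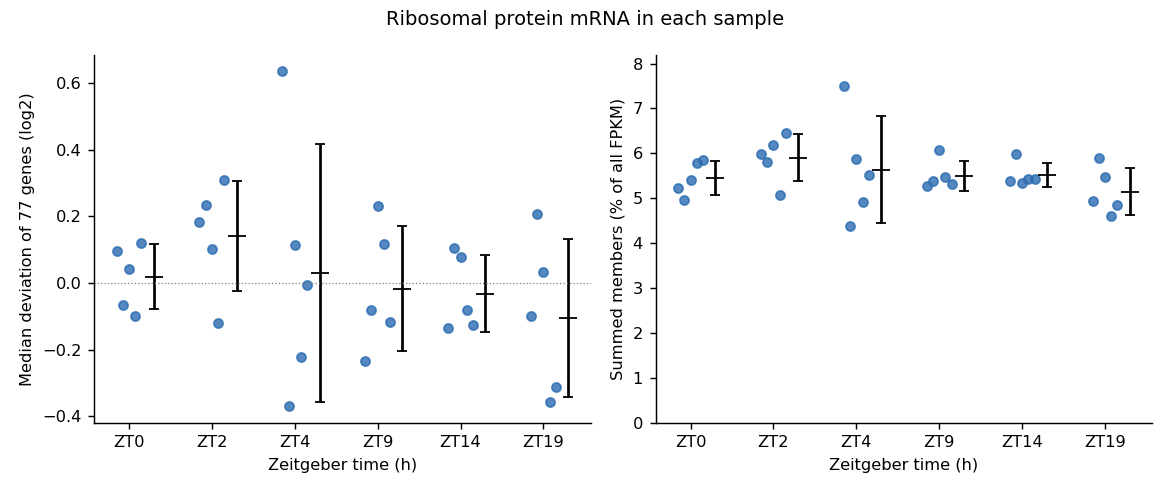
Left, median deviation of the 77 canonical genes from their own medians (log2); right, summed members as percent of all FPKM, for each mouse by zeitgeber time, with mean and SD (n = 5) in black. ZT4 replicate 1, at 0.64 and 7.51%, and ZT4 replicate 2, at -0.37 and 4.38%, are the extremes, and the other mice overlap across times.

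The design asks whether expression follows the time of day. No member passed an adjusted p of 0.05 in limma (Benjamini-Hochberg over 16741 genes) for a 24 h rhythm, where 0.108% of tested genes passed, 6 members were below an unadjusted p of 0.05 and 8.76% of genes were. The same held for any difference among the 6 time points, with 0 members adjusted and 1 unadjusted, against 0.0717% and 8.67% of genes. The members' share at an unadjusted p was thus not above that of all genes in either test. The clock itself was visible in these samples: of 18 core clock genes 7 passed the rhythm test. Dbp, a transcription factor driven by the clock, had an amplitude of 1.15 ± 0.11 (log2, SE), and Arntl, a core activator, 1.55 ± 0.15 with a peak at ZT23.5. The median amplitude was 0.11 over members and 0.22 over all tested genes. A fitted amplitude cannot be negative and grows with a gene's spread. Members had the smaller SD (median 0.31 against 0.64), so the smaller amplitude does not show a weaker rhythm. The fitted peaks of 50 of the 86 members fell between ZT0 and ZT6, where 30.0% of all tested genes peaked, and since members vary together these peaks are not independent.

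The members with the smallest rhythm p were Rpl27, Rps4l, Rpl10, Rpl17 and Rps20. Rpl27 (ENSMUSG00000063316, chr11:101442298-101445529, plus strand), a large-subunit protein mutated in some cases of Diamond-Blackfan anaemia, stood at 711, 335, 630.3, 516 and 557 FPKM at ZT0, 507, 769, 528, 512 and 525 at ZT2, 866, 399, 426, 350.2 and 456 at ZT4, 301, 501, 575, 472 and 388 at ZT9, 395, 492, 256, 379.7 and 302 at ZT14 and 365, 389.6, 439, 347 and 413 at ZT19. All mice at ZT2 were above all at ZT14 and ZT19, and the remaining time points overlapped with both sides. Its amplitude was 0.29 ± 0.08 with a fitted peak at ZT2.39 (adjusted p = 0.386, limma).

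Rpl10 (ENSMUSG00000008682, chrX:74270812-74273135, plus strand) encodes a protein that joins the large subunit late in its assembly. It stood at 447, 346, 361, 271 and 308 FPKM at ZT0, 361, 341, 336, 357 and 329 at ZT2, 462, 268, 383, 295 and 306 at ZT4, 318, 267, 381, 413 and 256 at ZT9, 282, 329, 207, 255 and 295 at ZT14 and 275, 305, 314, 262 and 227 at ZT19. ZT2 and ZT19 did not overlap, while ZT0, ZT4 and ZT9 overlapped with every other time point. Its amplitude was 0.19 ± 0.06 with a peak at ZT3.79 (adjusted p = 0.486, limma).

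Rps20 (ENSMUSG00000028234, chr4:3831334-3835665, minus strand), a protein of the small subunit, stood at 336, 371, 401, 342 and 379 FPKM at ZT0, 419.8, 409, 299, 313 and 486 at ZT2, 633, 259, 364, 318 and 376 at ZT4, 293, 335, 407, 483 and 306 at ZT9, 256, 361, 279.8, 307 and 319.9 at ZT14 and 214, 314, 354, 281 and 309.8 at ZT19. Each time point overlapped with every other, and the highest value was again in ZT4 replicate 1. Its amplitude was 0.21 ± 0.08 (adjusted p = 0.537, limma), and that of Rpl17, which lines the peptide exit tunnel, was 0.19 ± 0.07 (adjusted p = 0.486, limma).

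Rps4l (ENSMUSG00000063171, chr6:148354656-148355598, plus strand), annotated as a transcribed processed pseudogene close to the X-linked Rps4x, had a later fitted peak than these, at ZT8.14. It stood at 14.3, 31.3, 28.8, 25.0 and 44.7 FPKM at ZT0, 46.5, 50.8, 29.8, 32.7 and 37.8 at ZT2, 47.3, 34.8, 40.6, 18.5 and 45.9 at ZT4, 31.6, 35.9, 51.8, 42.8 and 49.9 at ZT9, 35.1, 31.6, 50.8, 37.4 and 31.8 at ZT14 and 30.1, 25.6, 15.4, 19.9 and 30.8 at ZT19. The ZT19 mice were all below those at ZT9 and ZT14, and overlapped with those at ZT0, ZT2 and ZT4. Its amplitude was 0.41 ± 0.12 (adjusted p = 0.421, limma).

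**Figure D3:**
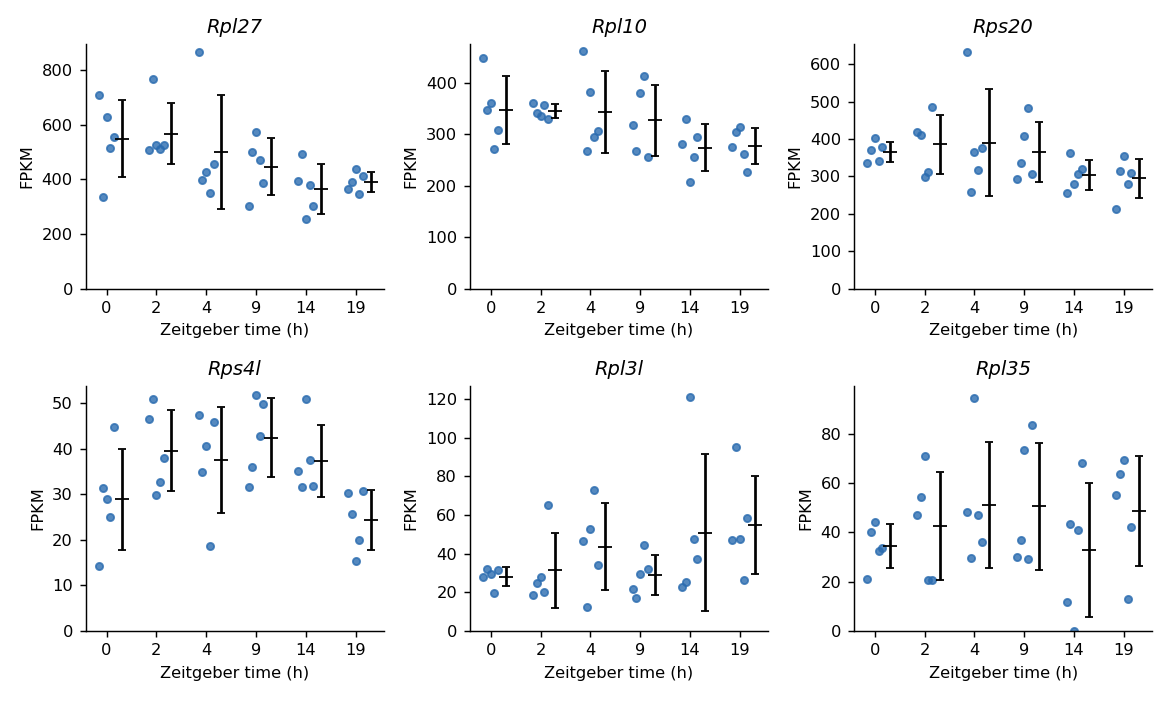
FPKM of 6 members in each mouse by zeitgeber time, with mean and SD (n = 5) in black. Rpl27 at ZT2 lies above its ZT14 and ZT19 values, Rps4l at ZT19 lies below its ZT9 and ZT14 values, and Rpl3l reaches 121 FPKM in 1 mouse at ZT14.

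Between day (mean of ZT2, ZT4 and ZT9) and night (ZT14 and ZT19) no member passed the adjusted threshold in limma, and 0.0299% of genes did. At an unadjusted p of 0.05, 9 members were higher by day and 1, Rpl3l, was lower, against 6.21% and 4.33% of tested genes. The median difference of the members was 0.11 on the log2 scale, against 0.02 over all tested genes, and 70 of 86 were positive, against 53.3% of genes. Without ZT4 replicate 1 the median was 0.06, and with 5 marker scores of other cell types as terms it was -0.01 with 43 of 86 positive. Rpl10 differed by 0.29 ± 0.11 (adjusted p = 0.354), Rpl27 by 0.39 ± 0.15 (0.361), Rps20 by 0.32 ± 0.12 (0.375), Rps7 by 0.32 ± 0.14 (0.419) and the pseudogene Rps3a2 by 0.51 ± 0.23 (0.436). These missed the threshold, which does not show that day and night were alike.

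The intervals say what size of change these data leave room for. For 83 of the 86 members the 95% interval of the day-night difference lay within 1 log2 unit of 0. The exceptions were Rpl3l (-1.14 to -0.00033), Rpl35 (-0.26 to 1.63) and Rpl39l (-0.29 to 1.72). Because 1 is added before the log, the intervals do not bound the fold change of members near 1 FPKM. For Rps3a2, at a median of 1.23 FPKM, the interval was 0.04 to 0.98, and its difference reached 1.005 under an alternative setting. The median SE of the members was 0.13, and that of all tested genes 0.25.

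**Figure D4:**
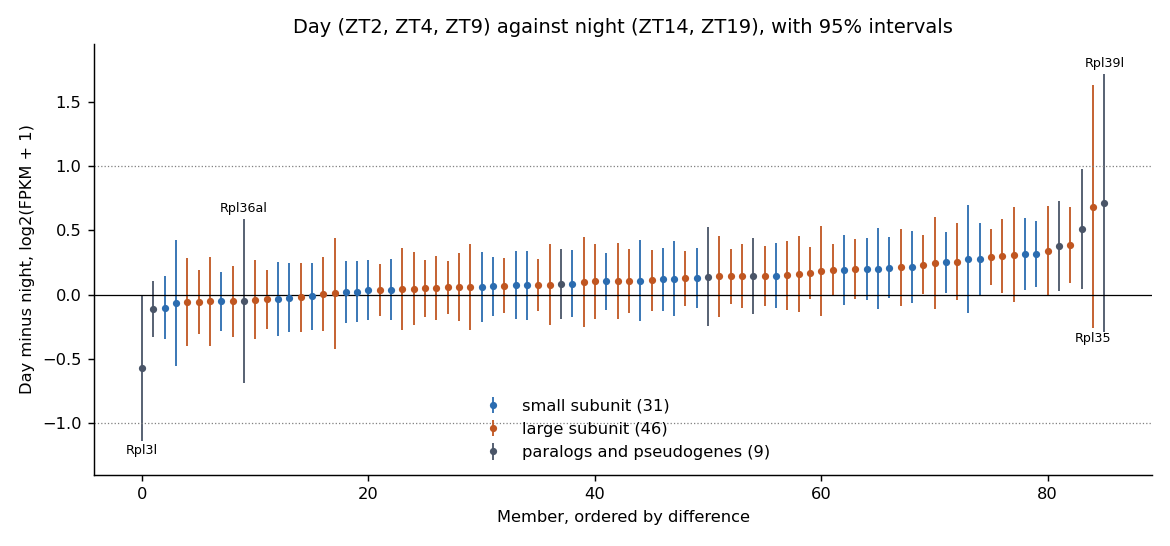
Day minus night in log2(FPKM + 1) for each of the 86 members, ordered by size, with 95% intervals from limma; dotted lines mark a difference of 1 in either direction. Most points lie a little above 0, intervals of 83 members stay inside the dotted lines, and Rpl3l, Rpl35 and Rpl39l reach past them.

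From 1 time point to the next no member passed an adjusted p of 0.05 in limma either. An adjusted p below 0.05 was reached by 0% of genes in the first 4 steps, 0.0119% from ZT14 to ZT19 and 0.0418% from ZT19 to ZT0. Unadjusted, 0 members were below 0.05 from ZT0 to ZT2 (3% of genes) and 0 from ZT2 to ZT4 (3.38%). There was 1 from ZT4 to ZT9 (3.48%) and 1 from ZT9 to ZT14 (6.74%). From ZT14 to ZT19 there were 5 (9.62%), 4 lower (3.79%) and 1 higher (5.84%). From ZT19 to ZT0 there were 3 (13%), all 3 higher at ZT0 (7.05%) and 0 lower (5.92%). The members' median difference was 0.11 from ZT0 to ZT2, -0.12 from ZT2 to ZT4, -0.04 from ZT4 to ZT9, -0.01 from ZT9 to ZT14, -0.05 from ZT14 to ZT19 and 0.14 from ZT19 to ZT0, with a median SE of 0.205 for a single gene. With 1 sample left out the median ran from -0.14 to 0.11 for ZT4 to ZT9 (0.11 without ZT4 replicate 1), from -0.05 to 0.05 for ZT9 to ZT14 and from -0.13 to 0.02 for ZT14 to ZT19. The direction of these 3 medians is therefore not settled by the data, and with marker scores as terms those of ZT2 to ZT4 and ZT19 to ZT0 turned to 0.13 and -0.20. From ZT14 to ZT19 Rps15a (-0.60 ± 0.24), Rpl24 (-0.80 ± 0.33), Rpl6 (-0.49 ± 0.20) and Rps4l (-0.62 ± 0.27) had lower and Rpl36 (0.60 ± 0.27) higher values, with adjusted p of 0.424 to 0.473. From ZT19 to ZT0 the higher ones included Rplp0 (0.48 ± 0.22) and Rpl14 (0.33 ± 0.15), with adjusted p of 0.337 and 0.350.

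Among functional groups of the large subunit, the P stalk recruits the translation factors. Rplp0, its base, had a rhythm amplitude of 0.20 ± 0.09, while Rplp1 and Rplp2, the proteins bound to it, had 0.05 ± 0.08 and 0.02 ± 0.10. Rpl5 and Rpl11, which carry 5S rRNA into the subunit and bind Mdm2 when ribosome assembly fails, had amplitudes of 0.11 ± 0.06 and 0.10 ± 0.08. Rpl4 and Rpl39, which line the exit tunnel with Rpl17, had 0.11 ± 0.07 and 0.14 ± 0.09. All of these had adjusted p of at least 0.486 (limma). Rps6, the small-subunit protein that is phosphorylated after mTORC1 activation, had a median of 131 FPKM and values from 92.2 to 222.

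Some ribosomal proteins have names that do not follow the rule. Rack1, a scaffold on the small subunit, had a median of 963 FPKM and an amplitude of 0.11 ± 0.09. Fau, made as a fusion with a ubiquitin-like protein, had a median of 281 FPKM and an amplitude of 0.02 ± 0.09. The lists of related genes were chosen with earlier results known. None of 20 other TOP mRNAs (translation factors and their like), 43 ribosome biogenesis genes, 18 genes of mTORC1 and TOP control or 79 mitochondrial ribosomal protein genes passed the rhythm test in limma. Unadjusted, 1, 7, 1 and 1 of them were below 0.05, beside 8.76% of all tested genes. Nop14, a factor for small-subunit assembly, had the smallest p of these, with an amplitude of 0.68 ± 0.16 and a peak at ZT23.2 (adjusted p = 0.175).

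Some paralogs can replace a canonical protein in the ribosome, which a share of FPKM does not show. Rpl22l1 made up 13.2% to 30.5% of the summed FPKM of itself and Rpl22, and Rps27l, a p53 target, 8.98% to 35.5% of itself and Rps27. Rpl36al made up 2.87% to 31.6% of its pair with Rpl36a, and Rps4l 2.52% to 10.6% of its pair with Rps4x. Rpl7l1 made up 2.83% to 7.15% of its pair with Rpl7, and Rpl39l 0% to 8.58% of its pair with Rpl39. The highest shares of Rps27l, Rpl36al and Rpl7l1 were all in ZT14 replicate 3, the library with many abundant genes at 0. Their medians over the samples were 15.3%, 14.0% and 5.06%, and that of Rpl22l1 was 21.3%. How the authors' counting split reads between near-identical copies is not given in the sources used here, so these shares are uncertain.

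Rpl3l, the paralog of Rpl3 known from striated muscle (ENSMUSG00000002500, chr17:24727820-24736143, plus strand), varied most among the paralogs above 0 in all samples apart from Rpl36al. It stood at 28.0, 32.0, 29.5, 19.6 and 31.5 FPKM at ZT0, 18.3, 24.7, 27.9, 20.1 and 65.1 at ZT2, 46.4, 12.4, 52.6, 72.8 and 34.0 at ZT4, 21.8, 16.8, 29.5, 44.2 and 32.1 at ZT9, 22.5, 25.5, 121, 47.8 and 37.3 at ZT14 and 47.2, 95.3, 47.6, 26.5 and 58.5 at ZT19. Its pair share ran from 4.55% in ZT4 replicate 2 to 29.2% in ZT19 replicate 2. All time points overlapped. Rpl3l was compared with a skeletal muscle score, the mean log2(FPKM + 1) of 14 muscle genes such as Acta1 and Ckm, none of which was at 0 in any sample. Over 30 samples Pearson r was 0.85 and Spearman rho 0.79 (permutation test, two-sided, p = 1e-05 each, the smallest 100000 resamples can give, adjusted p = 8e-05 over 8 paralogs). Without the 2 samples farthest from the median score r was 0.78. The other paralogs, tested with Rps27rt, had adjusted p of at least 0.274 for r.

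With the 6 time-point means as terms, Rpl3l rose by 0.83 ± 0.12 log2 units per unit of the muscle score (adjusted p = 4.31e-05, limma), so the relation was present among mice of the same time point. Rpl3l was the 1 member past the adjusted threshold, with 1.19% of genes having such a positive slope and 0.376% a negative one. Without adjustment, 22 members had a positive slope at the same cutoff and 0 a negative one (1105 and 1589 of 16741 genes). Of all 86 slopes 70 were positive (7341 genes), with a median of 0.12 against -0.04 over all tested genes. Without ZT4 replicate 1 and ZT14 replicate 3, 5 members were positive and 1 negative at that cutoff (892 and 989 genes). Of all slopes 71 were then positive (8146 genes). The muscle score was 6.85 to 7.85 at ZT0, 6.29 to 8.70 at ZT2, 7.02 to 8.66 at ZT4, 6.97 to 8.29 at ZT9, 7.13 to 9.32 at ZT14 and 7.96 to 9.61 at ZT19. The day-night fit with 5 marker scores as terms took in the muscle score, but its value for Rpl3l is not given here. The part of muscle RNA in the day-night value of Rpl3l was not tested by itself.

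The same fit was made on 5 more scores, a choice made after the per-sample values were seen. On the RPE score, 16 members had a negative slope past the adjusted threshold and 0 a positive one, against 1.64% and 2.37% of genes. Rps18 (-0.72 ± 0.12) and Rpl27 (-0.78 ± 0.14) had the smallest p. ZT4 replicate 1 had the lowest RPE score of the series, 7.08. Without it 0 members passed in limma, and the share of all genes with such a negative slope fell to 0.0896%. The members' median slope was -0.41 with this sample and -0.28 without it, where 14 members were negative at an unadjusted p of 0.05, against 6.02% of genes.

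On the surface epithelium score, built on keratins and other genes of cornea and conjunctiva, 16 members had a positive slope and 0 a negative one, against 5% and 2.19% of genes. Rplp0 (0.40 ± 0.06), Rpl12 (0.32 ± 0.06) and Rpl27 (0.38 ± 0.07) had the smallest p. Without ZT4 replicate 1 the count was 6 (4.43% of genes), and without ZT14 replicate 3 it was 26 (4.97%). Of the 12 genes in this list, Clca3a2 and Ly6d were listed at 0 in at least 1 sample.

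On the rod, myelin and stroma scores 0 members passed in limma. Slopes past the threshold were positive for 3.97%, 1.53% and 0.34% of genes, and negative for 0.293%, 0.233% and 0.0896%. Below an unadjusted p of 0.05 were 2, 13 and 9 members, against 13.3%, 11.2% and 13% of genes. The 2 on the rod score were negative (826 of 16741 genes). All 13 on the myelin score were positive (965 genes), and 7 were (1079 genes) with ZT4 replicate 1 and ZT14 replicate 3 left out. Of all 86 myelin slopes 74 were positive (7920 of 16741 genes). On the stroma score 8 members were negative (1155 genes) and 1 positive (1016 genes). Without ZT4 replicate 1 and ZT14 replicate 3, 1 member passed, Rpl6 on the rod score (-0.08 ± 0.02, adjusted p = 0.0199, limma), and the members' median slope on the stroma score was 0.04 in place of -0.08. The surface epithelium score was 7.37 to 8.47 at ZT0, 7.15 to 8.10 at ZT2, 5.64 to 8.42 at ZT4, 5.84 to 8.22 at ZT9, 6.21 to 7.81 at ZT14 and 5.64 to 6.25 at ZT19. Rplp0, which had the smallest p for this score among members, stood at 820.4, 684, 766, 736 and 654 FPKM at ZT0, 818, 942, 822, 628 and 1017 at ZT2, 1293, 454, 682, 504 and 720.3 at ZT4, 427, 695, 920.3, 748 and 579.5 at ZT9, 721, 755, 638, 697 and 470.5 at ZT14 and 483, 661, 498, 459.6 and 538 at ZT19. Its ZT19 values were all below those at ZT0 apart from 1 mouse. The RPE score was 7.31 to 8.08 at ZT0 and 8.30 to 8.55 at ZT19. Neither the RPE nor the surface epithelium scores of ZT0 and ZT19 overlapped, so time and tissue makeup cannot be told apart between them. The part of tissue makeup in the time-of-day values of the members was not tested, and the fit with marker scores as terms does not separate the 2.

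**Figure D5:**
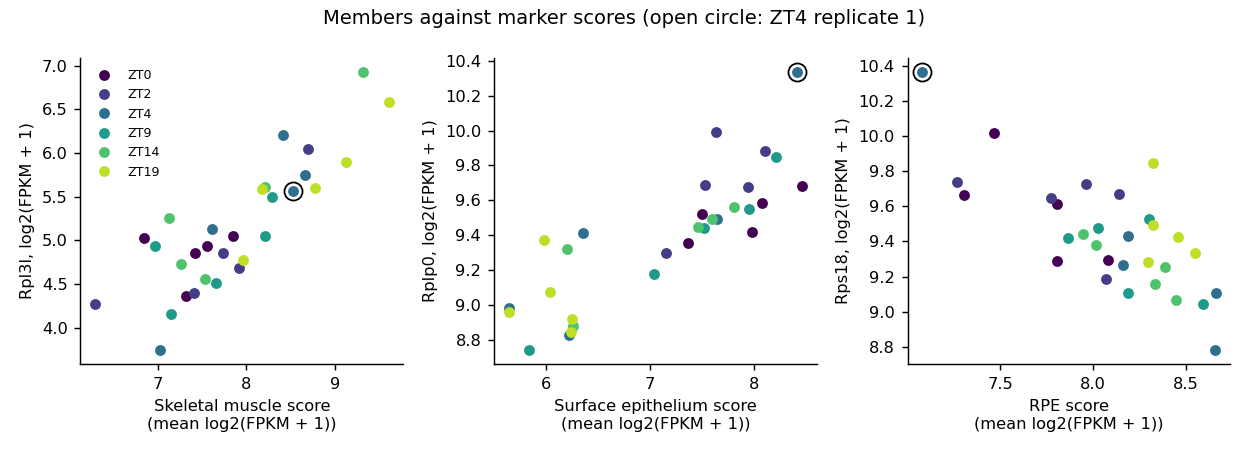
log2(FPKM + 1) of 3 members against a marker score in 30 samples, coloured by zeitgeber time; the open circle is ZT4 replicate 1. Rpl3l rises with the muscle score (r = 0.85), Rplp0 is higher where the surface epithelium score is higher, and Rps18 is lower where the RPE score is higher, with ZT4 replicate 1 at the end of the range.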

How the data were processed

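RNA from 30 RPE samples was sequenced as single reads of 75 bp, on average 20 M (mega) per sample per the labels. The values used are the deposited FPKM computed by the authors, written with decimal commas. STAR, Cufflinks, DESeq2 and mm10 are named per the submitters' processing notes, without versions or roles. The annotation, the strand setting and the treatment of shared reads are not given in the sources used here. No raw reads or count tables were used here, and no count model was run. A 0 can be a failed estimate.

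Genes with at least 1 FPKM in at least 5 samples were kept, and log2(FPKM + 1) was modelled in limma 3.58.1 (R 4.3.3), letting the variance follow the mean expression. A 24 h cosine was fitted over all samples. Separate means for the time points gave the F test, the day-night contrast and the 6 steps. All tests were two-sided, and p was adjusted over all 16741 genes (Benjamini-Hochberg, threshold 0.05). Values after ± are SE for fitted effects and SD for group means. FPKM values printed for a time point are in the order of replicate number, which pairs nothing. Start sequences were read from RefSeq (GRCm38.p6), and gene positions from GENCODE M21. The depth was estimated from 1-read steps and is no deposited count. The fits were tested on simulated data.

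Members and lists were chosen with earlier results of these data known. Named genes were the 5 with the smallest p in the rhythm and day-night tests, the 5 highest and lowest, the 5 with the largest and smallest SD, the paralogs and the functional groups; a few genes that this rule takes in are not reported here. Rpl35, Rpl27a, Rps6 and the members named for a step or a marker score were singled out after their values were seen. Alternatives covered the pseudocount, filter, scaling, trend, eye side, animal-number runs, marker scores, pseudogene rows and each sample left out. Leaving out ZT4 replicate 1 and ZT14 replicate 3 together, and all fits on single marker scores, were chosen after seeing the data.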

Additional observations from a re-analysis of the deposited data

Results flagged for a closer look

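Single mice far from the other 4 of their time point were looked for in 84 groups (12 genes and 2 summaries at each time, the genes chosen after their values were seen). There were 9. The cutoff is passed by about 1 in 20 groups of independent values. That rate does not apply here, because the genes were chosen by their values, members vary together and ZT4 replicate 1 recurs. Whether 9 is more than chance gives therefore cannot be said. Rpl27 stood at 769 FPKM in ZT2 replicate 2, with the others at 507 to 528, and at 866 in ZT4 replicate 1, with the others at 350.2 to 456. The same library held Rps7 at 629 FPKM, against 223 to 332, and Rpl13a at 9859, against 4847 to 6285. Rpl3l stood at 65.1 FPKM in ZT2 replicate 5, against 18.3 to 27.9, and at 121 in ZT14 replicate 3, against 22.5 to 47.8. Rpl35 stood at 94.7 FPKM in ZT4 replicate 3, against 29.6 to 48.4. The members' share of all FPKM was 6.07% in ZT9 replicate 3, against 5.27% to 5.47%, and 5.98% in ZT14 replicate 2, against 5.33% to 5.43%.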

How the results depend on the processing

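The count of members past the adjusted threshold was 0 in all 9 time tests under the main settings, the 11 alternatives and each of the 30 samples left out. At an unadjusted p the day-night count ranged from 1 (marker scores as terms) to 18 (rescaled without small and mitochondrial RNAs), and from 4 to 15 with 1 sample left out. Over the 11 alternatives this count was 3 to 10 for the rhythm, 2 to 15 from ZT14 to ZT19 and 0 to 16 from ZT19 to ZT0. The shares of all genes under these settings are not given here, so a change in a count need not be particular to the members. With 5 marker scores as terms the members' median difference was -0.20 from ZT19 to ZT0 and 0.13 from ZT2 to ZT4, opposite in sign to the values in the report, and the cause was not tested. It was 0.12 from ZT14 to ZT19, also opposite. Eye side as a term turned ZT4 to ZT9 to 0.10 and ZT14 to ZT19 to 0.04, and median scaling and animal-number runs turned ZT9 to ZT14 to 0.04 and 0.07. Leaving out ZT4 replicate 1 and ZT14 replicate 3, the smallest adjusted p in the day-night test was 0.655.

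The counts of members following a marker score moved more. Shares of all genes called in the same direction are in brackets. For the RPE score the count of 16 (1.64%) became 6 with median scaling (1.62%) and 8 without the mean-variance trend (1.34%). It became 7 with eye side as a term (0.962%), 0 without both libraries (0.209%), and 0 to 25 with 1 sample left out. Of these, the count without ZT4 replicate 2, ZT4 replicate 4 or ZT9 replicate 1 was 8, 8 and 9 (0.992%, 0.908% and 0.974%). Without ZT14 replicate 3 it was 25 (2.38%). For the surface epithelium score the count of 16 (5%) became 10 with eye side (3.61%) and 9 without both libraries (3.92%). With 1 sample left out it was 6 (4.43%) to 26 (4.97%). For the muscle score the count of 1 (1.19%) became 2 with median scaling (1.76%) and 1 to 2 with 1 sample left out. The correlation of Rpl3l with the muscle score was recomputed under 4 alternatives and with each sample left out: r was 0.82 to 0.87, and the adjusted p was 8e-05 for r throughout and at most 0.00016 for rho. In the limma fit its adjusted p was at most 0.00145, without both libraries. No paired analysis was possible because every sample came from a different mouse. The labels give no replicate numbers, and those used only name samples in order of deposition. With 5 mice a time point, members with small changes cannot be told from no change.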

Other observations

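Ribosomal protein genes carry small nucleolar RNA (snoRNA) genes, which guide rRNA modification, inside their introns. In the annotation 30 of the 86 members (34.9%) held at least 1 snoRNA gene, 58 in all, against 1.54% of 16707 tested genes. Rpl4 held 5, and Rpl13a held 4. Members with a snoRNA gene had a median level of 349 FPKM and those without 361 FPKM. Rpl13a, the most abundant member, is one of these hosts, and the part of snoRNA reads in its value was not tested.

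Processed pseudogenes of ribosomal protein genes are many in the mouse genome. The table lists 276 rows named as such with the suffix ps, of which 48 passed the filter. Together they summed to 0.359% to 0.718% of the members' FPKM in any sample, and the highest had a median of 24.7 FPKM.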
